A study of Homo sapiens with 8 samples.

Results

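FGR, LYN, FYN, FES, SYK, BTK, LCP2, PLCG2 and INPP5D form the first relay inside a leukocyte when an integrin or an Fc receptor is engaged. These 9 genes were taken by symbol from the 37526 gene names listed for all 8 RNA-seq libraries of the series, and all 9 passed the low-count filter of every comparison. The libraries came from NB4 cells, an acute promyelocytic leukemia line that carries the PML/RARα fusion. Cells stably expressed either a short hairpin RNA against the H3K9 demethylase KDM3B (shKDM3B) or a control, which the labels call an empty vector and the methods a scrambled hairpin (scramble), from a puromycin-selected lentiviral vector. Both kinds of cells were left untreated or were given 1 µM all-trans retinoic acid (ATRA, the drug that drives promyelocytic cells to mature), giving the groups scramble, shKDM3B, scramble+ATRA and shKDM3B+ATRA with 2 libraries each. The dose is that of the labels, whereas the methods give 1 mM, and the difference could not be settled. The labels name 24 and 48 h of ATRA without saying which applied, and the sources do not say which of the study's hairpins was sequenced. The methods speak of replicate experiments without saying that these were separate cultures, so the p-values measure the spread between these libraries, which may be technical.

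In this pathway, kinases of the Src family sit at the membrane and phosphorylate the ITAM motifs of adaptor proteins, on which SYK docks and becomes active. SYK then phosphorylates LCP2 (SLP-76), a scaffold that brings together BTK and PLCG2, and PLCG2 cleaves a membrane lipid to release calcium. INPP5D (SHIP1) removes a phosphate from the lipid that recruits BTK and so acts as a brake, and FES is a separate cytoplasmic tyrosine kinase of myeloid cells. In neutrophils this relay links adhesion and immune complexes to spreading, phagocytosis and the oxidative burst.

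The libraries held 9708739 to 33017787 read pairs assigned to genes. The share of read pairs outside annotated genes was 8.49 to 9.62% in 5 libraries and 50.02 to 51.45% in the other 3, which were scramble+ATRA replicate 2 and both shKDM3B+ATRA libraries. Where leaving out a scramble+ATRA library made or ended a call of the 9 genes, in their response in scramble cells or in the knockdown comparison with ATRA, that value is therefore given. In the comparison of shKDM3B+ATRA with shKDM3B this difference cannot be told apart from ATRA. KDM3B itself was at 187.4 and 187.9 CPM in scramble, where CPM is the count per 1000000 read pairs of a library size scaled for composition, and at 76.3 and 86.2 CPM in shKDM3B. With ATRA it was at 196.4 and 121.4 CPM in scramble+ATRA and at 52.5 and 57.4 CPM in shKDM3B+ATRA. The summed level of 6 granulocytic maturation markers was 429.9 to 457.6 CPM in scramble, 255.4 to 271.3 CPM in shKDM3B, 3198 to 3456 CPM in scramble+ATRA and 1456 to 1755 CPM in shKDM3B+ATRA. The summed 6 promyelocyte markers went the other way, from 4452 to 5534 CPM in scramble and 8554 to 9723 CPM in shKDM3B to 707.0 to 844.2 CPM and 2323 to 3224 CPM in the same cells with ATRA. Nearly all of that sum was MPO, at 4284 to 5343 CPM in scramble and 615.8 to 729.6 CPM in scramble+ATRA. CTSG was lower with ATRA as well, whereas CD33 went from 63.0 to 74.5 CPM in scramble to 88.0 to 110.4 CPM in scramble+ATRA. Among these markers, ELANE, which defines promyelocytes, had at most 3 counts per library in every group except shKDM3B, and FPR1, one of the maturation markers, had at most 3 in both shKDM3B groups. In bulk RNA a change in the share of mature cells and a change in RNA per cell cannot be told apart, and this holds for every result below.

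The promoters of 3 genes are shown because FGR and LCP2 were upregulated by ATRA and FYN was downregulated. RefSeq (GRCh38.p14) gave promoter windows for 8 of the 9 genes, each reaching from 250 bases before to 50 bases after a start site, and the start closest to that of the gene's main transcript was taken. That distance was 0 for 6 genes, 542 bases for FES and 40250 bases for PLCG2. Capitals mark GAGGAAG on either strand, the core letters bound by PU.1, an ETS factor of the myeloid lineage. The 250 bases before the start are printed 5′ to 3′ on the strand of the gene, which is the minus strand for all 3. They lie at chr1:27635186-27635435 for FGR, chr5:170297778-170298027 for LCP2 and chr6:111873453-111873702 for FYN.
FGR: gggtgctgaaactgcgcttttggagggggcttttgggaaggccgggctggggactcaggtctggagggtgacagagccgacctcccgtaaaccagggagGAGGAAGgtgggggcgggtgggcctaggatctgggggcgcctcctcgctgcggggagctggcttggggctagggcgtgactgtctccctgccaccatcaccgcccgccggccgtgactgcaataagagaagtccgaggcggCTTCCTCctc
LCP2: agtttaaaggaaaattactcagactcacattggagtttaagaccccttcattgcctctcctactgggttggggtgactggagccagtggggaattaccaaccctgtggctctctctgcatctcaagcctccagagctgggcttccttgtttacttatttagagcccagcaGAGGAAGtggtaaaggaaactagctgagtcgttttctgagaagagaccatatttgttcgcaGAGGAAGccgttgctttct
FYN: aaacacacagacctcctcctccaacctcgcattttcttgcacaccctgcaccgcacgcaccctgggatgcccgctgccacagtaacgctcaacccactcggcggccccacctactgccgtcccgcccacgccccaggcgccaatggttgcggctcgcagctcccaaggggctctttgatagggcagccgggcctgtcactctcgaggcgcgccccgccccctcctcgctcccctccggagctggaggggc

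The FGR promoter held 2 copies of GAGGAAG, whose first bases as printed lay 151 and 10 bases before the start. The second copy was on the opposite strand and is printed as CTTCCTC. The LCP2 promoter held 2 copies as well, 80 and 19 bases before its start, and the FYN promoter held 0. Of the 8 genes with a promoter, 6 held at least 1 copy (FGR, LCP2, SYK, BTK, INPP5D and PLCG2), compared with 13.6% of the 35116 RefSeq promoters. SYK held 2 copies as well, with ATRA log2 fold changes of 0.23 and 0.14 in scramble and shKDM3B cells. INPP5D held 1 (-0.38 and -0.71), as did BTK (0.61 and 0.28) and PLCG2 (0.50 and 0.20), and FES held 0 (0.38 and 0.46). AGGTCA, the half-site bound by retinoic acid receptors, was found in 1 of the 8, that of BTK, and in 13.8% of all promoters. TGANTCA, the AP-1 site, was found in 0 of the 8 and in 7.71% of all. These are matches of letters and not measurements of binding.

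FGR ranged from 0.460 to 553.6 CPM over the 8 libraries. It encodes a Src family kinase of mature neutrophils and monocytes, and it lies on the minus strand of hg38 at chr1:27612064-27635185. In scramble cells it was at 3.26 and 1.80 CPM, from 65 and 43 read pairs. In shKDM3B cells it was at 0.462 CPM (95% exact Poisson interval 0.211 to 0.878) and 0.460 CPM (0.258 to 0.759), from 9 and 15 read pairs. The untreated groups did not overlap, and both rested on few read pairs. With ATRA the level was 553.6 and 436.7 CPM in scramble+ATRA and 198.5 and 251.7 CPM in shKDM3B+ATRA. The order from low to high was therefore shKDM3B, scramble, shKDM3B+ATRA and scramble+ATRA, with a gap between every pair of neighbors.

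With ATRA, FGR was upregulated in scramble cells by 7.65 ± 0.39 (log2 fold change ± SE), which is 201-fold, with an adjusted p of 0.000135 by edgeR's quasi-likelihood test. In shKDM3B cells it was upregulated by 8.96 ± 0.23 on the log2 scale, from a start of 9 and 15 read pairs (adjusted p = 1.34e-08 by edgeR). The knockdown lowered FGR by 5.42-fold in untreated cells (log2 fold change -2.44 ± 0.47), and the adjusted p was 0.129 by edgeR and 0.0199 by DESeq2. Over all settings tried that adjusted p lay between 2.34e-05 and 0.249. In ATRA-treated cells knocking down lowered it by 2.19-fold (log2 fold change -1.13 ± 0.21), with an adjusted p of 0.502 by edgeR and 0.000221 by DESeq2, and of 3e-29 to 1 over all settings. Without scramble+ATRA replicate 1, so that all libraries had about the same share outside genes, the difference was -0.94 and still called, that is, past a 1.5-fold change and an unadjusted p under 0.05. Without shKDM3B+ATRA replicate 1 it was -0.97 and the call was lost. FGR is one of the genes in the signature that the study chose on these libraries, so its fall is not independent evidence of that signature. The summed granulocytic maturation markers given above put the 4 groups in the same order as FGR. With ATRA most of that sum was CYBB (1811 to 2023 CPM in scramble+ATRA) and NCF1 (747.1 to 1132 CPM), which held the order without overlap, as did CSF3R and ITGAM, whereas NCF4 and FPR1 did not. Of the monocyte markers, CD163 had at most 3 counts in every library, CD14 was at 0.646 CPM or less, and CSF1R was at 4.57 to 5.08 CPM in scramble, 2.16 to 3.41 CPM in shKDM3B, 4.70 to 9.25 CPM in scramble+ATRA and 3.32 to 3.90 CPM in shKDM3B+ATRA. The part of either list in the differences of FGR was not tested.

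The limits that define a call follow the methods of the study. In scramble cells, ATRA raised 4 of the 9 genes (FGR, LYN, LCP2 and BTK) and lowered 1 (FYN), where 15.0% and 10.8% of the 12429 tested genes were called higher and lower. The median log2 fold change was 0.50 over the 9 genes and 0.02 over all genes. Leaving out scramble+ATRA replicate 1 or 2 gave ATRA responses in scramble cells of 7.48 and 7.79 for FGR, 1.49 and 1.33 for LYN, 1.03 and 0.95 for LCP2, -3.07 and -2.88 for FYN, and 0.25 and 0.47 for FES. In shKDM3B cells, ATRA raised 3 (FGR, LYN and LCP2) and lowered 2 (FYN and INPP5D), where 24.0% and 18.3% of 12756 genes were called. The medians there were 0.28 and 0.04. Knocking down KDM3B without ATRA raised 0 and lowered 2 (FGR and FYN), beside 3.48% and 3.53% of 13855 genes called higher and lower. With ATRA it raised 0 and lowered 1 (FGR), beside 2.42% and 4.37% of 14281 genes. Under edgeR 0 of the 9 passed an adjusted p of 0.05 with the knockdown, where 3 genes of the whole table did without ATRA and 0 with ATRA, compared with 1411 and 1383 genes at an unadjusted p under 0.05. When the replicate number was added as a block, 2 of the 9 passed without ATRA and 0 with ATRA, among 780 and 0 genes called. Under DESeq2, the tool of the study, 1 of the 9 (FGR) passed in each, among 278 and 357 genes called. Each group served in 2 of these comparisons, so the 4 sets of values are not independent of each other.

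**Figure D1:**
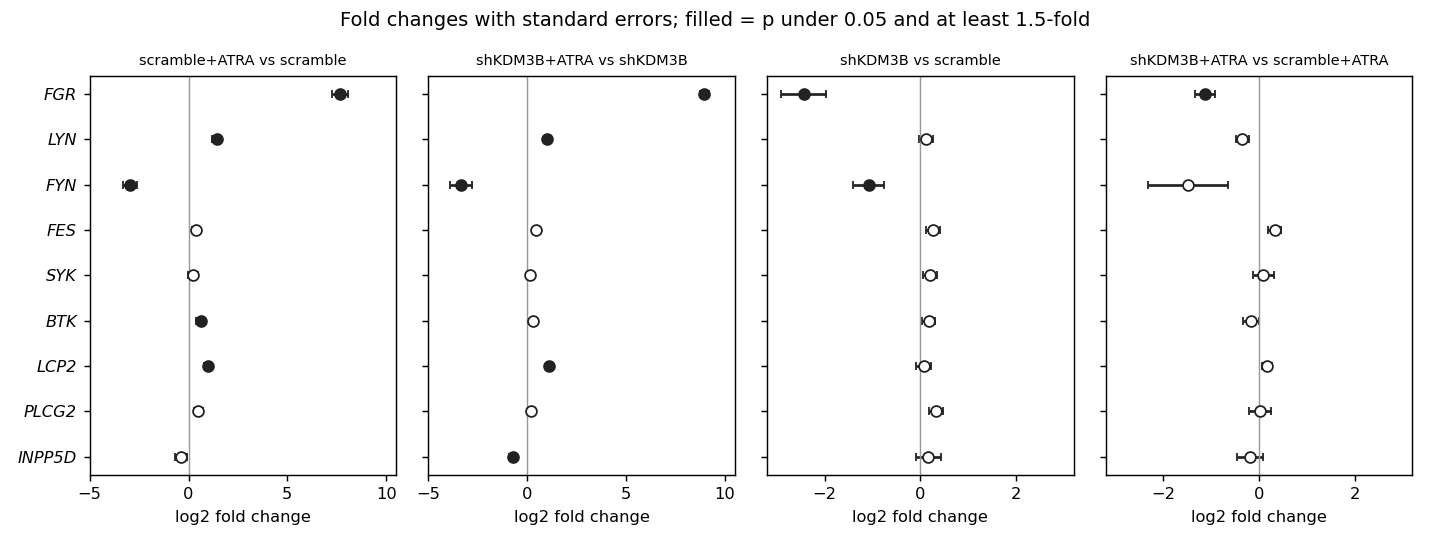
Log2 fold change of each gene with its standard error in the 4 comparisons, filled where p was under 0.05 and the change at least 1.5-fold; the axes of the left and right pairs differ. FGR is filled in all 4 panels, FYN in 3, and SYK, FES and PLCG2 in 0.

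LYN, the Src family kinase on chromosome 8 that works as both an activator and a restraint of myeloid signalling, was the main one of the 3 before ATRA. Its level was 72.8 and 64.6 CPM in scramble and 72.6 and 75.4 CPM in shKDM3B, and these groups overlapped. It was 171.5 and 188.4 CPM in scramble+ATRA and 129.0 and 151.8 CPM in shKDM3B+ATRA. All 4 treated libraries lay above all 4 untreated ones. ATRA raised LYN by 1.42 ± 0.21 on the log2 scale in scramble cells (adjusted p = 0.00522 by edgeR) and by 0.98 ± 0.13 in shKDM3B cells (adjusted p = 0.000275 by edgeR). Knocking down KDM3B gave log2 fold changes of 0.11 ± 0.15 without ATRA and -0.35 ± 0.14 with ATRA (adjusted p = 0.879 and 0.533 by edgeR), and neither was called.

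FYN, the Src family kinase best known from T cells and neurons, moved against FGR and LYN with ATRA. It lies on the minus strand at chr6:111660332-111873452. The level was 11.3 and 14.2 CPM in scramble, 4.16 and 7.79 CPM in shKDM3B, 1.72 and 1.48 CPM in scramble+ATRA, and 0.211 and 0.904 CPM in shKDM3B+ATRA. No 2 groups overlapped, but the last values rest on 2 and 9 read pairs, with 95% exact Poisson intervals of 0.0255 to 0.761 and 0.414 to 1.72 CPM. ATRA lowered FYN by 7.76-fold in scramble cells (log2 fold change -2.96 ± 0.37, adjusted p = 0.00275 by edgeR) and by 10.2-fold in shKDM3B cells (-3.35 ± 0.56, adjusted p = 0.000962 by edgeR). The second value depended on the treated library, being -2.70 without shKDM3B+ATRA replicate 1 and -4.75 without shKDM3B+ATRA replicate 2. In untreated cells the knockdown lowered it by 2.11-fold (-1.08 ± 0.32, adjusted p = 0.269 by edgeR), and the value was -0.71 without shKDM3B replicate 1 and -1.63 without shKDM3B replicate 2. When all 8 libraries shared one estimate of the spread, it was -1.09 and the call was lost (adjusted p = 0.73 by edgeR). With ATRA the difference was -1.49 ± 0.84 and was not called (adjusted p = 0.608 by edgeR), whereas without scramble+ATRA replicate 2 it was -1.59 and was called. That difference was -0.81 without shKDM3B+ATRA replicate 1 and -2.86 without shKDM3B+ATRA replicate 2. Over all settings the adjusted p lay between 0.00123 and 0.73 without ATRA. With ATRA it lay between 0.0506 and 1, apart from DESeq2, which gave none.
The 6 T cell markers summed to 11.7 to 14.4 CPM in scramble, 10.3 to 20.4 CPM in shKDM3B, 0.858 to 1.84 CPM in scramble+ATRA and 0.211 to 1.00 CPM in shKDM3B+ATRA. Nearly all of the sum in untreated cells was TRAC, which reached 13.0 CPM in scramble and 0.277 CPM in scramble+ATRA, whereas CD3D overlapped between these groups (0.602 to 1.13 and 0.613 to 0.922 CPM), as did CD3E. CD3G and CD247 had at most 3 counts per library in every group. The part of this sum in the fall of FYN was not tested.

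Per kb of main transcript, a scale on which genes can be compared, the leading Src family kinase of these 3 was not the same with and without ATRA. LYN made up 70.6 to 74.0% of their summed CPM per kb in scramble and 84.7 to 90.4% in shKDM3B. FGR made up 83.6 to 87.6% in scramble+ATRA and 77.3 to 78.5% in shKDM3B+ATRA, and there FYN was at most 0.205%. The sum itself was 15.6 and 16.8 CPM per kb in scramble and 13.7 and 15.2 in shKDM3B. It was 197.9 and 239.4 CPM per kb in scramble+ATRA and 97.2 and 121.5 in shKDM3B+ATRA. Of further kinases of the family, BLK had 0 counts in every library, while LCK reached 5 counts and FRK 6. YES1, a kinase of many tissues, was at 20.8 to 52.8 CPM, and SRC at 0.461 to 1.46 CPM.

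**Figure D2:**
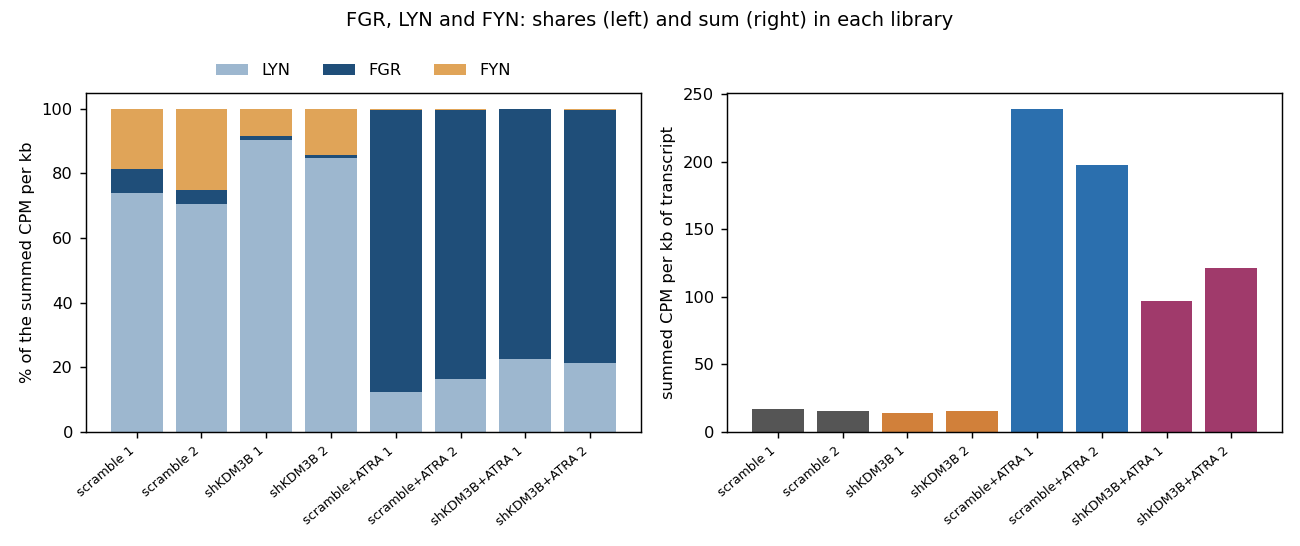
Left, the share of FGR, LYN and FYN in their summed CPM per kb of transcript in each library, in percent; right, that sum in CPM per kb. LYN holds at least 70.6% in each of the 4 untreated libraries and FGR at least 77.3% in each of the 4 treated ones, while the sum goes from at most 16.8 to at least 97.2 CPM per kb.

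SYK, the kinase that docks on phosphorylated ITAMs, was not called in any comparison. It was at 194.0 and 226.6 CPM in scramble, 229.8 and 253.2 in shKDM3B, 285.1 and 198.1 in scramble+ATRA, and 258.4 and 253.4 in shKDM3B+ATRA. The scramble+ATRA libraries spanned nearly the whole range of the gene. ATRA gave 0.23 ± 0.24 on the log2 scale in scramble cells and 0.14 ± 0.12 in shKDM3B cells. The knockdown differences were 0.20 ± 0.15 without ATRA and 0.09 ± 0.22 with ATRA. Leaving out scramble+ATRA replicate 1 turned the response of scramble cells to -0.05.

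LCP2, the scaffold next to SYK, was upregulated by ATRA in both kinds of cells. It lies on the minus strand at chr5:170246233-170297815, and 1.8% of its exon length is shared with C5orf58 on the opposite strand. The level was 58.7 and 70.2 CPM in scramble and 68.5 and 66.6 CPM in shKDM3B, which overlapped. With ATRA it was 124.0 and 128.5 CPM in scramble+ATRA and 141.0 and 139.4 CPM in shKDM3B+ATRA. The treated libraries all lay above the untreated ones. The log2 fold change with ATRA was 1.00 ± 0.21 in scramble cells (adjusted p = 0.0205 by edgeR) and 1.11 ± 0.12 in shKDM3B cells (adjusted p = 6.74e-05 by edgeR). The difference between these responses was 0.08 ± 0.19 (adjusted p = 1 by edgeR). Knocking down KDM3B gave 0.07 ± 0.16 and 0.16 ± 0.11 without and with ATRA, and neither was called.

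BTK, the TEC family kinase that activates PLCG2, had the highest level per kb of the 9 genes before ATRA. It was at 161.0 and 165.1 CPM in scramble, 181.9 and 184.9 in shKDM3B, 272.0 and 213.8 in scramble+ATRA, and 215.0 and 214.4 in shKDM3B+ATRA. The treated groups overlapped, and both lay above the untreated ones. In scramble cells ATRA raised BTK by 1.52-fold (log2 fold change 0.61 ± 0.21, adjusted p = 0.115 by edgeR), at the edge of the fold limit. That call was lost at 0.43 without scramble+ATRA replicate 1, at 0.56 without scramble replicate 1 and at 0.61 without scramble replicate 2, where p exceeded its limit. A replicate block ended the call as well. In shKDM3B cells the value was 0.28 ± 0.12 and was not called. The knockdown values of 0.17 ± 0.14 without ATRA and -0.17 ± 0.17 with ATRA were not called.

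PLCG2, the phospholipase at the end of this relay, was at 141.9 and 164.6 CPM in scramble, 184.3 and 197.7 in shKDM3B, 250.9 and 173.0 in scramble+ATRA, and 209.3 and 215.4 in shKDM3B+ATRA. The untreated groups did not overlap, whereas the scramble+ATRA libraries lay on both sides of shKDM3B and of shKDM3B+ATRA. The knockdown gave 0.32 ± 0.15 on the log2 scale without ATRA and 0.01 ± 0.23 with ATRA (adjusted p = 0.542 and 0.994 by edgeR). ATRA gave 0.50 ± 0.24 in scramble cells and 0.20 ± 0.12 in shKDM3B cells (adjusted p = 0.236 and 0.177 by edgeR). Without scramble+ATRA replicate 2 the first of these was 0.72 and was called. In the annotation used for positions, 24.3% of its exon length is shared with other genes on the same strand. Read pairs from there may have been left uncounted as ambiguous.

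INPP5D, the lipid phosphatase that brakes the relay, differed widely between replicates. It was at 197.1 and 306.5 CPM in scramble, 218.1 and 344.3 in shKDM3B, 235.2 and 144.4 in scramble+ATRA, and 163.0 and 169.4 in shKDM3B+ATRA. Every neighboring pair of groups overlapped in the order of means. ATRA lowered INPP5D by 1.63-fold in shKDM3B cells (log2 fold change -0.71 ± 0.19, adjusted p = 0.0133 by edgeR). Without shKDM3B replicate 2 the fall was 0.34 on the log2 scale and under the fold limit. In scramble cells the change was -0.38 ± 0.31 (adjusted p = 0.493 by edgeR), against a called -0.77 without scramble+ATRA replicate 1 and -0.09 without scramble+ATRA replicate 2. The knockdown differences were 0.16 ± 0.26 without ATRA and -0.19 ± 0.28 with ATRA, and were not called.

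FES was at 77.4 and 83.3 CPM in scramble, 91.8 and 100.2 in shKDM3B, 111.0 and 93.0 in scramble+ATRA, and 128.0 and 125.9 in shKDM3B+ATRA. Both shKDM3B groups lay above their scramble counterparts, by 0.26 ± 0.15 and 0.32 ± 0.14 on the log2 scale without and with ATRA, and neither difference was called. In shKDM3B cells the ATRA response of 0.46 ± 0.12 had an adjusted p of 0.0126 by edgeR but was below 1.5-fold. In scramble cells it was 0.38 ± 0.20 (adjusted p = 0.289 by edgeR).

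Whether the response to ATRA differed between shKDM3B and scramble cells was tested over all 8 libraries. The share of read pairs outside genes was 51.45 and 51.05% in shKDM3B+ATRA and 9.36 and 50.02% in scramble+ATRA. A difference between responses cannot be fully told apart from this difference in libraries. Of the 9 genes 1, FGR, was called, with a larger log2 response in shKDM3B, where 1.42% of 13528 genes had a larger and 3.07% a smaller response at p under 0.05. The difference for FGR was 1.29 ± 0.45 on the log2 scale (adjusted p = 1 by edgeR and 0.378 by DESeq2). On the linear scale the order was the opposite. Mean FGR rose by 492.7 CPM in scramble cells and by 224.6 CPM in shKDM3B cells, from 2.53 ± 1.03 and 0.461 ± 0.00153 CPM (SD, n = 2). The FGR call was lost without scramble replicate 1 (0.81), without either shKDM3B library (1.30 and 1.34) and without shKDM3B+ATRA replicate 2 (1.11). LYN had a log2 difference of -0.46 ± 0.21 and was not called, and the other 7 lay between -0.41 and 0.08.

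Around the 9 genes, 80 further genes of the pathway were grouped into 7 lists. Their counts of called genes stand beside 15.0% of all tested genes higher and 10.8% lower with ATRA in scramble cells, 3.48% and 3.53% with the knockdown without ATRA, and 2.42% and 4.37% with the knockdown with ATRA. The 4 leukocyte integrin subunits, which sit above the Src kinases at the membrane, were all raised by ATRA in scramble cells (4 of 4, median log2 fold change 2.41). ITGAX (CD11c) rose by 3.54 ± 0.34 and ITGAM (CD11b) by 3.02 ± 0.26, and ITGAL by 1.80 ± 0.36 (adjusted p = 0.00112, 0.000736 and 0.0168 by edgeR). Knocking down KDM3B lowered 1 of the 4 without ATRA, ITGAM, from 20.5 to 26.1 CPM down to 9.86 to 14.9 CPM (log2 fold change -0.90 ± 0.25, adjusted p = 0.239 by edgeR and 0.0524 by DESeq2). With ATRA it lowered 2 of the 4, ITGAL and ITGAM, with log2 fold changes of -1.08 and -0.82. ITGAM is also one of the maturation markers summed above.

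Of the 8 ITAM adaptors and Fc receptors, 5 were tested. The adaptors TYROBP (DAP12) and FCER1G, whose ITAMs are the docking sites for SYK, were raised by ATRA in scramble cells by 2.52 ± 0.24 and 1.39 ± 0.25 on the log2 scale (adjusted p = 0.00109 and 0.0114 by edgeR). TYROBP went from 7.72 to 9.04 CPM up to 42.8 to 51.0 CPM. Both were lower with the knockdown, with log2 fold changes of -0.87 and -1.33 without ATRA (adjusted p = 0.284 and 0.13 by edgeR, 0.233 and 0.00101 by DESeq2) and -1.03 and -1.62 with ATRA (adjusted p = 0.502 for both). Over the settings tried without ATRA, the adjusted p lay between 0.021 and 0.677 for TYROBP and between 5.54e-05 and 0.331 for FCER1G. Without shKDM3B replicate 1 the value for TYROBP in untreated cells was -0.72 and was not called. The 3 Fc gamma receptors that were tested (FCGR1A, FCGR2A and FCGR2B) were not called with ATRA in scramble cells, nor with the knockdown. FCGR3A, FCGR3B and FCAR had at most 1 count in every library.

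Among 18 adaptors and exchange factors near LCP2 and SYK, 14 were tested with ATRA in scramble cells, of which 6 rose and 2 fell (median 0.42). PRAM1, an LCP2-binding adaptor of the granulocyte lineage, rose by 3.78 ± 0.24 on the log2 scale, from 38.2 to 43.0 CPM up to 483.7 to 603.4 CPM. BLNK, the B cell counterpart of LCP2, rose by 3.18 ± 0.61 from at most 13 counts, and SKAP2, an adaptor of integrin signalling, by 2.72 ± 0.25. The BLNK value was 4.14 without scramble replicate 1 and 2.55 without scramble replicate 2. GAB2, a docking protein for lipid kinases and phosphatases, fell by 3.18 on the log2 scale, from 31.4 to 39.6 CPM down to 3.23 to 4.35 CPM, and LAT2 fell by 1.12. The knockdown without ATRA was tested for 14 genes that were not all the same, since BLNK was too low and FYB1, which the untreated files list as FYB and the treated ones as FYB1, could be compared only within each kind of file. It lowered 3 and raised 0. These were the adaptor FYB1, PRAM1 and the exchange factor VAV3, with log2 fold changes of -1.15 ± 0.23, -0.95 ± 0.22 and -0.84 ± 0.21 (adjusted p = 0.13, 0.172 and 0.203 by edgeR). By DESeq2 the adjusted p was 0.01 for PRAM1 and 0.0424 for VAV3. With ATRA the knockdown lowered 2 of 14, LAT2 (-0.80) and FYB1 (-0.62), whereas PRAM1 and VAV3 had values of -0.55 and -0.34 and were not called. PRAM1 and PLCB2 also belong to the signature that the study chose on these libraries.
Of the B cell markers, MS4A1 and PAX5 had at most 3 counts in every library. CD79A was at 3.06 to 3.21 CPM in scramble and 16.1 to 16.4 CPM in scramble+ATRA, whereas CD79B was at 5.79 to 7.43 CPM and 1.23 to 1.66 CPM. Their part in the value of BLNK was not tested.

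All 17 lipid and calcium signalling genes were tested, and ATRA raised 7 and lowered 1 in scramble cells (median 0.48). PLCB2, a phospholipase driven by chemoattractant receptors, rose by 3.81 ± 0.37 on the log2 scale, PIK3R5 by 2.83 ± 0.29 and PIK3CG by 1.74 ± 0.35, PIK3R5 and PIK3CG being subunits of the same lipid kinase. The call of PIK3CG was lost without scramble replicate 1 (1.40). PLCG1, the sister enzyme of PLCG2, fell by 1.45 on the log2 scale (adjusted p = 0.0525 by edgeR), a call that was lost without scramble replicate 2 (-1.13). Without ATRA the knockdown lowered PIK3R5 (-1.28 ± 0.35) and PLCB2 (-1.06 ± 0.17) and raised the calcium channel ITPR1 (0.62 ± 0.20), with adjusted p of 0.224, 0.105 and 0.322 by edgeR and of 0.156, 0.000155 and 0.19 by DESeq2. The call of ITPR1 was lost without scramble replicate 1 (0.42) and without shKDM3B replicate 1 (0.53). With ATRA 0 of the 17 were called, and the values of these 3 were -0.72, -0.44 and 0.70.

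Of 21 genes listed as brakes on the pathway, 20 were tested, and ATRA raised 13 and lowered 1 in scramble cells (median 0.96). Not all of them only restrain it, since the phosphatases PTPRC (CD45) and PTPRJ (CD148) also activate Src family kinases by removing their inhibitory phosphate, and both were among the 13 (1.54 and 1.37). SLA, an adaptor that promotes the turnover of immune receptors, rose by 3.69 ± 0.25 on the log2 scale, from 28.5 to 37.4 CPM up to 410.6 to 419.3 CPM. The inhibitory receptor LILRB2 was at 1 and 0 counts in scramble and at 0.922 to 0.981 CPM in scramble+ATRA, at least 6.88-fold higher, taking 3 counts per library as the limit. SLA2 was at 9.07 CPM in one scramble+ATRA library and 109.8 CPM in the other, the higher one being replicate 2, and without it the rise of 3.67 became 0.93. The call was lost without either scramble library (3.90 and 3.42). The phosphatase PTPRE fell by 1.14 on the log2 scale. Without ATRA the knockdown lowered DOK2 and SLA2 (log2 fold changes -1.89 and -1.46) and raised the ubiquitin ligase CBLB (0.65), with adjusted p of 0.208, 0.247 and 0.454 by edgeR and of 0.355, 0.101 and 0.591 by DESeq2. The call of DOK2 was lost without scramble replicate 2 (-1.53) and that of SLA2 with all 8 libraries in one fit (-1.44). The SLA2 value was -1.04 without shKDM3B replicate 1 and -2.16 without shKDM3B replicate 2. CBLB was not called under DESeq2 (0.65), without scramble replicate 1 (0.45) or without either shKDM3B library (0.63 and 0.66). With ATRA the knockdown values of these 3 genes were -2.01, 0.13 and 0.64, of which that of DOK2 was called.

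**Figure D3:**
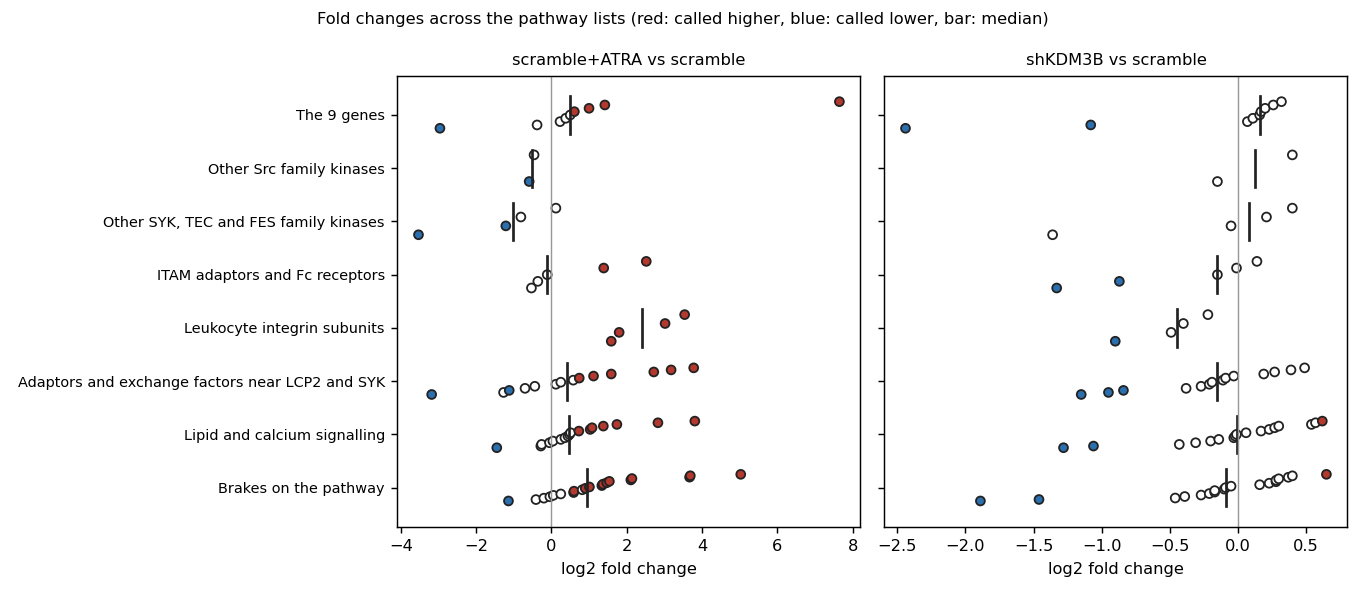
Log2 fold changes of the tested genes of each list, with 1 point per gene, for ATRA in scramble cells (left) and for the KDM3B knockdown without ATRA (right); red and blue mark genes called higher and lower, white those not called, and the bar is the median. The 4 integrin subunits and 13 of the 20 genes listed as brakes are red on the left, whereas on the right 2 of the 9 genes and 10 genes of the lists are blue.

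Kinases related to SYK, BTK and FES formed a list of 6, of which 4 were tested with ATRA in scramble cells. Of these 0 rose and 2 fell. TXK, a TEC family kinase of T cells, was at 0.797 to 1.10 CPM in scramble and at 1 count per library in scramble+ATRA, at least 4.13-fold lower with the limit of 3 counts, and its call was lost without scramble replicate 1. TEC fell by 1.21 on the log2 scale (adjusted p = 0.128 by edgeR), a call that was lost without either scramble library (-1.39 and -1.07) and without scramble+ATRA replicate 2 (-0.87). YES1, 1 of the 2 tested among the other Src family kinases, fell by 0.59 (adjusted p = 0.15 by edgeR). Its call was lost with a replicate block (-0.58), without either scramble library (-0.45 and -0.75) and, just under the fold limit, without scramble+ATRA replicate 1 (-0.58). With ATRA the knockdown raised YES1 by 0.77 ± 0.19 on the log2 scale (adjusted p = 0.502 by edgeR).

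The genes whose log2(CPM + 1) followed each of the 9 most closely over the 8 libraries were picked from 13528 genes, and the coefficients (Pearson's r) describe 8 libraries that differ mostly by ATRA. For FGR these were TAPBPL, MR1 and CDH23 (0.999 each), and for LYN B3GNT8 (0.997), GADD45A (0.992) and PTGES (0.992). For FYN they were EPX (0.987), the peroxidase of eosinophil granules, HNRNPA1L2 (0.987) and CAMK1D (0.986). LCP2 was followed most closely by AGO1, PCYOX1L and WIPF1 (0.995, 0.994 and 0.994), and BTK by STAT6, PTPRJ and PNPLA3 (0.984, 0.982 and 0.975). INPP5D went with PAK4, CIZ1 and NACC1 (0.996, 0.990 and 0.982), PLCG2 with TLR6, WASHC5 and MTF1 (0.979, 0.960 and 0.955), SYK with TMEM63A, KIF13B and ZCCHC6 (0.966, 0.956 and 0.951) and FES with STX18-AS1, DZIP3 and SRPRA (0.976, 0.974 and 0.970). Among the 9 themselves, r was 0.97 between FGR and LYN, 0.95 between FGR and LCP2, 0.92 between SYK and PLCG2, and -0.93 between FYN and LCP2.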

How the data were processed

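The 9 genes and the lists of related genes were chosen with earlier results of these data known. Some genes of these lists are not reported here. RNA-seq libraries (TruSeq kit, paired reads) were made by the authors, who used Trim Galore for trimming, HISAT2 for alignment (hg38), HTSeq for counting per gene and DESeq2 for comparing groups; their notes also list Picard and SAMtools. The deposited values are whole-number counts without normalization. Whether counting used strand is not given in the sources used here.

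From these counts, each pair of groups was fitted over all genes with edgeR 4.0.16 in R 4.3.3 (filterByExpr, TMM, quasi-likelihood F test) on its own 4 libraries, and the difference between ATRA responses over all 8. The genes tested were those named in the files of both groups, since untreated and treated files list 56470 and 56609 names. A gene was called at p under 0.05 and at least 1.5-fold (p alone for the difference between responses), and adjusted p-values are Benjamini-Hochberg values over all genes of the fit. The standard error is the log2 fold change divided by the square root of F. CPM used TMM-scaled library sizes, so 1 read pair was worth 0.0307 to 0.105 CPM, and intervals and the limit of 3 counts cover counting error only. With 2 libraries per group no permutation test can go below p = 0.333. Named genes were the 9, KDM3B, up to 3 called genes per list and direction with the largest change with ATRA in scramble or with the knockdown, and the 3 closest patterns per gene. Positions and lengths (MANE Select transcripts) came from GENCODE v44. The fits were tested on simulated data. Alternatives were scaling by library size alone or by DESeq2's size factors, no low-count filter, DESeq2 1.42.0, adjusted p, the replicate number as a block, all 8 libraries in one fit and each library left out. Adjusted p with the block was added after seeing the data. Python 3.11.15, pandas 2.3.3, numpy 2.4.6, scipy 1.17.1 and matplotlib 3.10.9 were used.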

Additional observations from a re-analysis of the deposited data

Results flagged for a closer look

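The difference between the FGR responses to ATRA in shKDM3B and scramble cells was 1.29 on the log2 scale, larger in shKDM3B, and passed an unadjusted p of 0.05 in a test of the difference itself but not the adjustment over all genes (adjusted p = 1 by edgeR). On the linear scale the order was the opposite, with a rise of 224.6 CPM in shKDM3B and 492.7 CPM in scramble cells. The log2 difference cannot be fully told apart from the share of read pairs outside genes, which was unlike between the treated groups. It rests on 9 and 15 read pairs in the untreated shKDM3B libraries, and leaving out single libraries gave values between 0.81 and 1.66, with the call lost for 4 of the 8 libraries.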

How the results depend on the processing

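The settings below changed one choice at a time, except that adjusted p and the block were also combined, and where a library was left out, the lone library of its group was assumed to vary like the others. Of the 9 genes, 2 were called with the knockdown without ATRA, and this became 0 with adjusted p and 1 with all 8 libraries in one fit. With ATRA the knockdown count of 1 became 0 with adjusted p, 2 with all 8 libraries in one fit and 0 to 2 with a library left out. For the difference between responses the count of 1 became 2 with DESeq2, 0 with adjusted p and 0 to 3 with a library left out. The counts of 5 with ATRA in scramble and in shKDM3B cells were 4 to 6 and 4 to 5 with a library left out. The cause of these differences was not tested, beyond there being fewer libraries where one was left out.

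Same-numbered libraries share only a number in the labels, and the correlation of their deviations was 0.422 and 0.0375 for the knockdown without and with ATRA, and -0.0919 and 0.193 for ATRA in scramble and in shKDM3B cells. Fitted with a replicate block, the counts of called genes were 2, 1, 4, 5 and 1 for these 4 comparisons and the difference between responses, BTK being the call that ended. With adjusted p and the block they were 2, 0, 4, 5 and 0. Over all genes, the block moved the calls of the knockdown from 971 to 1242 without ATRA and from 969 to 525 with ATRA.

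Directions turned in values that were not called. With a library left out, the knockdown value of LCP2 spanned -0.05 to 0.21 and that of INPP5D -0.22 to 0.52 without ATRA. With ATRA these were -0.34 to 0.02 for BTK, -0.50 to 0.21 for INPP5D, -0.16 to 0.38 for SYK and -0.24 to 0.31 for PLCG2, which was also -0.01 without the low-count filter. The ATRA response in scramble cells spanned -0.05 to 0.45 for SYK and -0.59 to 0.07 for KDM3B. The difference between responses spanned -0.07 to 0.20 for FES, -0.06 to 0.20 for LCP2, -1.80 to 0.30 for FYN, -0.36 to 0.17 for SYK and -0.71 to 0.07 for INPP5D.

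Over all genes, the calls with the knockdown with ATRA went from 969 to between 134 and 5360 with a library left out, those without ATRA from 971 to 1650 without scramble replicate 2, those with ATRA in scramble cells from 3213 to between 1462 and 5142, and those of the difference between responses from 607 to between 288 and 2751, or 956 without the filter. With adjusted p the calls were 3 for the knockdown without ATRA, 0 with ATRA, 1604 with ATRA in scramble cells and 0 for the difference between responses, and with the block as well they were 780, 0, 1394 and 0. Library size alone moved the share of larger responses among calls from 31.6 to 45% and the median with ATRA in scramble cells from 0.016 to -0.079. It also turned the balance of the latter calls, from 1866 higher and 1347 lower to 1617 and 1688. With the knockdown with ATRA, 345 genes were called higher and 624 lower. That balance turned to more higher than lower when either scramble+ATRA library was left out. Depth limits FGR without ATRA and FYN with ATRA, whereas the other 7 genes had at least 1008 read pairs in every library.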
